A study of Homo sapiens with 6 samples.

Results

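Lysosome and autophagy genes were followed in TOV21G, a line from an ovarian clear cell carcinoma, through 38 genes taken from the deposited expression table by gene symbol. All 38 symbols are among the 16910 gene rows of the table. They comprise 15 lysosomal hydrolases and their cofactors, 4 lysosomal membrane proteins, 4 subunits of the proton pump, 13 autophagy genes and 2 transcription factors of the MiT/TFE family. The 6 poly(A) RNA-seq libraries form 3 groups of 2. In siGYS1 the labels name a knockdown of GYS1, the muscle-type glycogen synthase, and in sip53 a knockdown of p53. NC carries the genotype label WT and is read here as the control siRNA, which its label does not spell out. All groups are the same parental line, with no other allele or agent named. Neither the siRNA sequences nor the time after transfection nor the number of separate cultures is stated in these sources. The p-values therefore reflect library-to-library spread only, which may be technical.

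Lysosomes are acidic organelles in which hydrolases break down proteins, lipids, glycans and glycogen. A vacuolar proton pump (V-ATPase) keeps their lumen acid, and membrane proteins hold the lining and move products out. Autophagy encloses cell contents in a membrane that is decorated with lipid-linked proteins of the ATG8 family and then fuses with the lysosome. The transcription factors TFEB and TFE3 are known to drive many lysosomal genes through a short DNA element named CLEAR, and much of their control acts on the proteins' location and not on their transcripts.

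Each library holds between 17425000 and 18097337 assigned read counts, and the lowest count of any of the 38 genes in any library was 177. Levels are given as FPKM, fragments scaled to exon length and library size, as deposited by the authors. Differences are log2 fold changes with a standard error (SE). They come from edgeR's quasi-likelihood test on the deposited read counts, rounded, of all 13235 genes that passed a filter on low counts. All 38 genes passed that filter. A difference passes when its p, adjusted by Benjamini-Hochberg over all tested genes, is below 0.05. The target of siGYS1 followed its label: GYS1 had 1.69 and 1.67 FPKM in the siGYS1 libraries, 30.4 and 31.4 FPKM in the sip53 libraries, and 28.6 and 27.3 FPKM in the NC libraries. The libraries differ in how counts go with exon length, with a Spearman rho of 0.41 in siGYS1 replicate 1 and -0.29 in NC replicate 2 and between -0.08 and 0.04 in the others, each against the mean of all libraries. With that trend removed, 13 of the 38 genes rose and 2 fell with siGYS1, and 25 rose and 6 fell with sip53. Calls over all genes went up as well, to 3390 with siGYS1 and 7309 with sip53, against 2602 and 6605 without that correction. The part of the trend in single genes was not tested.

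Lysosome and autophagy transcripts were mostly higher with sip53 than with NC, and fewer of them were higher with siGYS1. With siGYS1, 10 of 38 genes rose and 2 fell, which is 31.6% called, against 19.7% of all tested genes (10.4% up and 9.24% down). The median log2 fold change of the 38 was 0.17, against -0.01 over all tested genes, and the 26 genes that did not pass lay between -0.29 and 0.32. With sip53, 24 rose and 6 fell, which is 78.9% called, against 49.9% of all tested genes (23.4% up and 26.5% down). Their median was 0.41, against -0.03 over all tested genes, and 6 of them differed at least 2-fold. In siGYS1 set directly against sip53, 4 of the 38 were higher and 17 lower, 55.3% called against 43.4% of all tested genes (22.5% up and 20.9% down). Both comparisons against NC use the same 2 NC libraries, so their values are given side by side and their likeness was not tested. Without NC replicate 2, 6 genes rose and 0 fell with siGYS1, while over the libraries left out in turn the rises with sip53 ran from 17 to 25 and the falls from 4 to 6. In the 2 runs with 1 sip53 library left out, 2 of the 38 genes were higher with siGYS1 than with sip53. By limma on log2(FPKM + 1), CTSB, PSAP and LAMP2 did not pass with siGYS1 (adjusted p = 0.0523 to 0.15), nor GLB1, NPC2, LAMP1, ATP6V1A, BECN1 and UVRAG with sip53 (adjusted p = 0.0508 to 0.418).

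**Figure D1:**
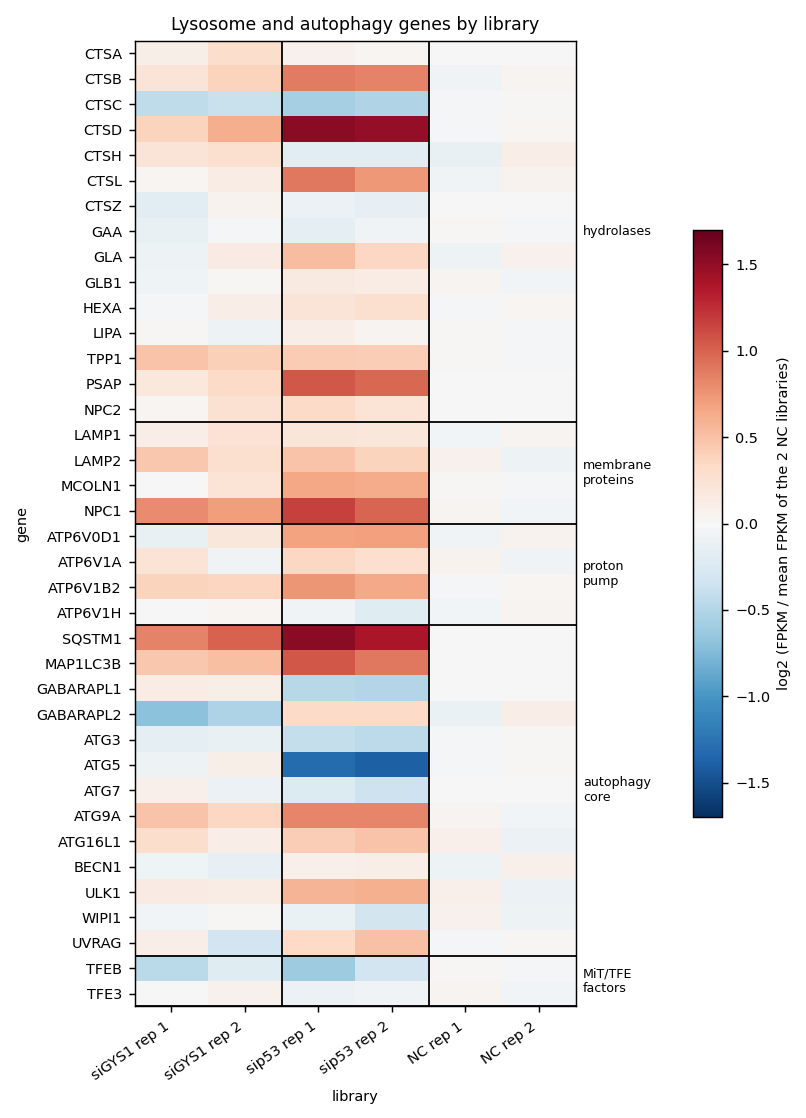
Level of each of the 38 genes in each library, as log2 of FPKM over the mean FPKM of both NC libraries; rows are grouped by role and columns by group. The sip53 columns hold the deepest reds, in CTSD and SQSTM1, and the deepest blue, in ATG5, while the siGYS1 columns are paler.

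**Figure D2:**
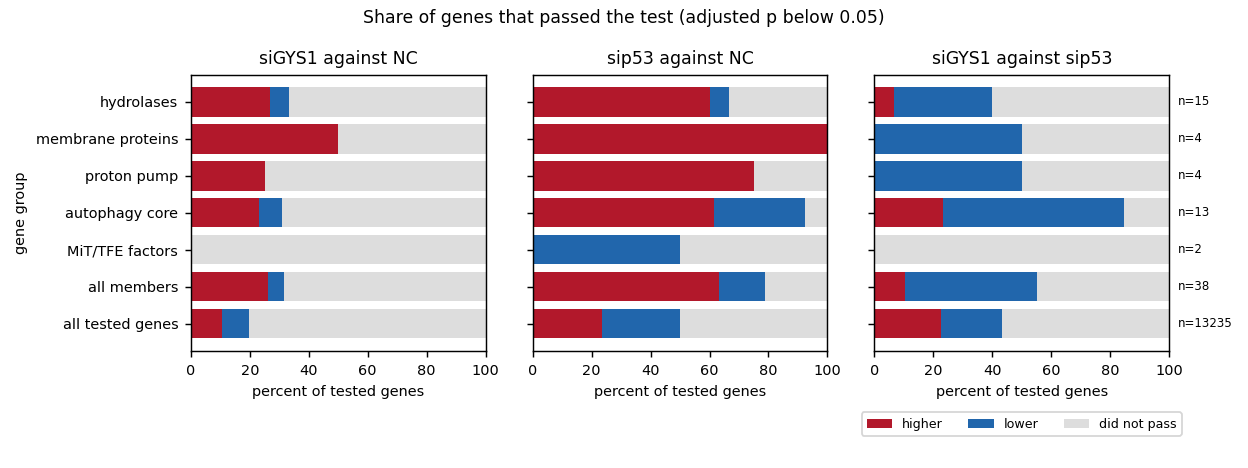
Percent of tested genes that were higher, lower or did not pass (adjusted p below 0.05) in each comparison, for each role group, for all 38 genes and for all 13235 tested genes; n is the number of genes. With sip53, 63.2% of the 38 genes rose, against 23.4% of all tested genes.

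The proximal promoters show where the best known element of this gene family stands. The RefSeq table of promoters (GRCh38.p14), 250 bases before to 50 after each gene's start, holds 30 of the 38 genes, and CTSB, PSAP, HEXA, ATP6V1A, ATP6V1B2, LAMP2, ATP6V1H and UVRAG are not in it. The 8-base core of the CLEAR element, TCACGTGA, searched on both strands, was in 6 of the 30 promoters (20.0%), against 1.18% of 27305 genes. CACGTG, which lies within that core, was in 7 of 30 (23.3%), against 8.77% of all. TGACNNNGC, the core of the antioxidant response element, was in 12 of 30 (40.0%), against 16.1% of all. Of these, ATP6V0D1, CTSD, CTSL, GLA, LAMP1, MAP1LC3B and NPC2 rose with sip53. CTSC fell with sip53, and CTSA, CTSZ, GAA and LIPA did not pass. With siGYS1, CTSD and MAP1LC3B rose, CTSC fell, and the others did not pass. The shares of all are over every gene of that promoter set, whether it was tested here or not. CLEAR is known from lysosomal genes, so its share among these 30 is no independent result. A match in these letters is a description and not a site shown to be used. The windows of the 7 genes with CACGTG are printed 5′ to 3′ on the gene's strand, the match in capitals.
LAMP1, chr13:113297199-113297228, plus strand: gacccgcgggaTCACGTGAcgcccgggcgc
MCOLN1, chr19:7522571-7522600, plus strand: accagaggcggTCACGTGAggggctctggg
ATP6V0D1, chr16:67481199-67481228, minus strand: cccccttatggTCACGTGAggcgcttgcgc
CTSD, chr11:1763958-1763985, minus strand: ccggccgcgccCACGTGaccggtccggg
CTSA, chr20:45891298-45891327, plus strand: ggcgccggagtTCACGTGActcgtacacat
GAA, chr17:80101493-80101522, plus strand: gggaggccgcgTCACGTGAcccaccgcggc
ATG3, chr3:112561940-112561969, minus strand: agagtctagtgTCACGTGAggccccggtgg
LAMP1, MCOLN1 and GAA each hold a further TCACGTGA in the same promoter. The genes with a printed match went different ways: with sip53, LAMP1, MCOLN1, ATP6V0D1 and CTSD rose, ATG3 fell, and CTSA and GAA did not pass, while with siGYS1 CTSD alone passed.

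Among the 15 hydrolases and cofactors, 9 rose and 1 fell with sip53, and 4 rose and 1 fell with siGYS1. That is 60.0% up and 6.67% down with sip53, against 23.4% and 26.5% of all tested genes. For siGYS1 it is 26.7% and 6.67%, against 10.4% and 9.24%. With sip53 the largest rises were in CTSD and PSAP, and with siGYS1 in CTSD and TPP1. CTSD, the aspartic protease cathepsin D (chr11:1752752-1764573, minus strand), had 303 and 357 FPKM in the siGYS1 libraries, 674 and 657 FPKM in the sip53 libraries, and 226 and 239 FPKM in the NC libraries. The 3 groups do not overlap, and sip53 stands furthest above NC. Its log2 fold change was 0.58 (SE 0.10, adjusted p = 0.00345) for siGYS1 and 1.65 (SE 0.10, adjusted p = 1.71e-06) for sip53, by edgeR. In the direct comparison it was lower with siGYS1 than with sip53 (-1.06, SE 0.10, adjusted p = 2.71e-05). PSAP, prosaposin, the precursor of the saposins that help sphingolipid hydrolysis, had 871 and 958 FPKM in the siGYS1 libraries, 1589 and 1513 FPKM in the sip53 libraries, and 760 and 773 FPKM in the NC libraries. It was the most abundant of the 38 in every library, and its groups do not overlap. PSAP rose by 0.33 (SE 0.08, adjusted p = 0.0211) with siGYS1 and by 1.09 (SE 0.08, adjusted p = 7.11e-06) with sip53.

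Cysteine cathepsins, a family of lysosomal proteases, did not move as one. CTSB, cathepsin B, had 229 and 256 FPKM in the siGYS1 libraries, 363 and 355 FPKM in the sip53 libraries, and 190 and 205 FPKM in the NC libraries. Its groups are apart, and the log2 fold change was 0.34 (SE 0.09, adjusted p = 0.0249) with siGYS1 and 0.97 (SE 0.09, adjusted p = 2.47e-05) with sip53. CTSL, cathepsin L, had 95.1 and 101 FPKM in the siGYS1 libraries, 173 and 154 FPKM in the sip53 libraries, and 88.9 and 96.6 FPKM in the NC libraries. The siGYS1 and NC libraries overlap, and the sip53 libraries lie above both. CTSL rose by 0.90 (SE 0.09, adjusted p = 3.84e-05) with sip53 and was at 0.18 with siGYS1 (adjusted p = 0.181). CTSC, a dipeptidyl peptidase that activates serine proteases of immune cell granules, had 204 and 212 FPKM in the siGYS1 libraries, 186 and 193 FPKM in the sip53 libraries, and 273 and 278 FPKM in the NC libraries. Both knockdowns lie below NC: CTSC fell by 0.34 (SE 0.08, adjusted p = 0.015) with siGYS1 and by 0.47 (SE 0.08, adjusted p = 0.000794) with sip53. CTSH, an aminopeptidase, passed against NC in neither group, with 44.0 and 45.7 FPKM in the siGYS1 libraries and 33.1 and 33.4 FPKM in the sip53 libraries, and NC between at 34.8 and 41.1 FPKM. It was higher with siGYS1 than with sip53 (0.39, SE 0.11, adjusted p = 0.0156). CTSZ, a carboxypeptidase, lay within 0.1 of 0 in all 3 comparisons. Outside the cysteine cathepsins, CTSA, the protective protein of sialidase and β-galactosidase, was at 0.26 (SE 0.09, adjusted p = 0.0728) with siGYS1 and 0.15 (SE 0.09, adjusted p = 0.197) with sip53.

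Of the enzymes of glycans, glycolipids and glycogen, 3 rose with sip53 and none passed with siGYS1. GLA, α-galactosidase A, which cleaves globotriaosylceramide, had 38.3 and 44.5 FPKM in the siGYS1 libraries, 58.3 and 51.6 FPKM in the sip53 libraries, and 38.3 and 42.8 FPKM in the NC libraries. GLB1, the β-galactosidase, had 57.9 and 62.0 FPKM in the siGYS1 libraries, 67.6 and 66.5 FPKM in the sip53 libraries, and 62.9 and 59.2 FPKM in the NC libraries. HEXA, the α subunit of β-hexosaminidase, had 86.4 and 94.5 FPKM in the siGYS1 libraries, 101 and 105 FPKM in the sip53 libraries, and 85.4 and 89.5 FPKM in the NC libraries. For these 3 genes siGYS1 and NC overlap and sip53 lies above both. They rose with sip53 by 0.54 (GLA, SE 0.11, adjusted p = 0.00285), 0.25 (GLB1, SE 0.08, adjusted p = 0.0308) and 0.35 (HEXA, SE 0.09, adjusted p = 0.00881). GAA, the acid α-glucosidase that degrades glycogen in the lysosome, had 29.6 and 31.8 FPKM in the siGYS1 libraries, 28.6 and 31.1 FPKM in the sip53 libraries, and 32.6 and 31.9 FPKM in the NC libraries. Its log2 fold changes lay within 0.1 of 0 with an SE of 0.10 in all 3 comparisons. LIPA, the acid lipase of cholesteryl esters, was at 0.18 with sip53 (SE 0.09, adjusted p = 0.104) and within 0.1 of 0 with siGYS1.

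TPP1, tripeptidyl peptidase, had 56.2 and 53.2 FPKM in the siGYS1 libraries, 54.4 and 54.0 FPKM in the sip53 libraries, and 41.0 and 39.6 FPKM in the NC libraries. Both knockdowns lie above NC and overlap each other. It rose by 0.50 (SE 0.08) in each, with an adjusted p of 0.00335 for siGYS1 and 0.000752 for sip53, and the direct comparison did not pass (adjusted p = 0.991, SE 0.08). NPC2, the cholesterol carrier of the lysosomal lumen, had 240 and 280 FPKM in the siGYS1 libraries, 294 and 275 FPKM in the sip53 libraries, and 235 FPKM in each NC library. The sip53 libraries lie above NC and overlap the siGYS1 libraries. It rose by 0.40 (SE 0.10, adjusted p = 0.00973) with sip53 and was at 0.18 with siGYS1 (adjusted p = 0.259).

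Among the hydrolases, some of the smaller calls were lost with 1 library left out, in fits with fewer residual degrees of freedom. The siGYS1 values of CTSB (0.34), PSAP (0.33) and CTSC (-0.34) were the same without either sip53 library. With siGYS1, CTSB, PSAP and CTSC did not pass once any 1 of the sip53 or NC libraries was left out, although their values stayed at 0.29 to 0.40, 0.31 to 0.35 and -0.35 to -0.34 there, so that 2 of 15 hydrolases rose and 0 fell in those runs. With sip53, GLB1 did not pass without any 1 of the sip53 or NC libraries (0.22 to 0.28), and HEXA (0.30 to 0.37) and NPC2 (0.38 to 0.42) did not without either sip53 library or NC replicate 1. Over the libraries left out in turn, 6 to 10 of the hydrolases rose with sip53. The higher level of CTSH with siGYS1 than with sip53 did not pass without either sip53 library (0.34 and 0.44), and the lower one of GLA (-0.45, SE 0.11, adjusted p = 0.00952) did not without sip53 replicate 1 (-0.36).

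All 4 lysosomal membrane proteins rose with sip53, and 2 of 4 with siGYS1, where 23.4% and 10.4% of all tested genes rose. NPC1, which exports cholesterol from the lysosome (chr18:23506184-23586898, minus strand), had 70.1 and 65.7 FPKM in the siGYS1 libraries, 90.6 and 79.9 FPKM in the sip53 libraries, and 41.6 and 39.0 FPKM in the NC libraries. The 3 groups do not overlap. NPC1 rose 1.81-fold with siGYS1 (log2 0.86, SE 0.09, adjusted p = 0.000445) and 2.38-fold with sip53 (log2 1.25, SE 0.09, adjusted p = 7.68e-06). It was lower with siGYS1 than with sip53 (-0.39, SE 0.09, adjusted p = 0.00775). LAMP2, a structural glycoprotein of the lysosomal membrane, had 46.0 and 40.5 FPKM in the siGYS1 libraries, 46.9 and 43.7 FPKM in the sip53 libraries, and 35.5 and 31.7 FPKM in the NC libraries. Both knockdowns lie above NC, at 0.40 (SE 0.10, adjusted p = 0.0229) with siGYS1 and 0.55 (SE 0.10, adjusted p = 0.00152) with sip53.

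LAMP1, the other main glycoprotein of that membrane, had 193 and 213 FPKM in the siGYS1 libraries, 206 and 205 FPKM in the sip53 libraries, and 174 and 185 FPKM in the NC libraries. It was at 0.24 (SE 0.09, adjusted p = 0.0767) with siGYS1 and rose by 0.30 (SE 0.09, adjusted p = 0.0162) with sip53. MCOLN1, the calcium channel mucolipin 1, was the least abundant of the 4, with 7.29 and 8.57 FPKM in the siGYS1 libraries, 11.6 and 11.3 FPKM in the sip53 libraries, and 7.44 and 7.21 FPKM in the NC libraries. Only the sip53 libraries stand apart there, with a rise of 0.75 (SE 0.12, adjusted p = 0.000593), and the direct comparison gave -0.57 (SE 0.12, adjusted p = 0.00327). With siGYS1, LAMP2 did not pass without siGYS1 replicate 1, either sip53 library or NC replicate 2 (0.29 to 0.40). With sip53, LAMP1 did not without either sip53 library or NC replicate 1 (0.25 to 0.30), and NPC1 in the direct comparison did not without sip53 replicate 1 (-0.34).

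Of the 4 proton pump subunits, 3 rose with sip53 and 1 with siGYS1, where 23.4% and 10.4% of all tested genes rose. ATP6V1B2, a catalytic-head subunit, had 46.5 and 46.2 FPKM in the siGYS1 libraries, 60.0 and 55.7 FPKM in the sip53 libraries, and 35.1 and 36.5 FPKM in the NC libraries. Its groups stand in 3 separate steps: 0.45 (SE 0.09, adjusted p = 0.00666) with siGYS1 and 0.81 (SE 0.09, adjusted p = 5.56e-05) with sip53, and -0.36 (SE 0.08, adjusted p = 0.0071) in siGYS1 against sip53. ATP6V0D1, of the membrane sector, had 57.8 and 72.6 FPKM in the siGYS1 libraries, 102 FPKM in each sip53 library, and 60.6 and 65.9 FPKM in the NC libraries. It rose with sip53 (0.80, SE 0.12, adjusted p = 0.00036), while the siGYS1 libraries lie on both sides of NC. ATP6V1A, the ATP-hydrolysing subunit, had 26.4 and 21.5 FPKM in the siGYS1 libraries, 28.6 and 27.3 FPKM in the sip53 libraries, and 23.3 and 21.5 FPKM in the NC libraries. Its rise with sip53 (0.42, SE 0.11, adjusted p = 0.0103) did not pass without either sip53 library or NC replicate 2 (0.37 to 0.45). ATP6V1B2 did not pass in the direct comparison without sip53 replicate 1 (-0.31). ATP6V1H, a regulatory subunit, lay between 28.3 and 33.5 FPKM in all libraries and passed in no comparison.

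**Figure D3:**
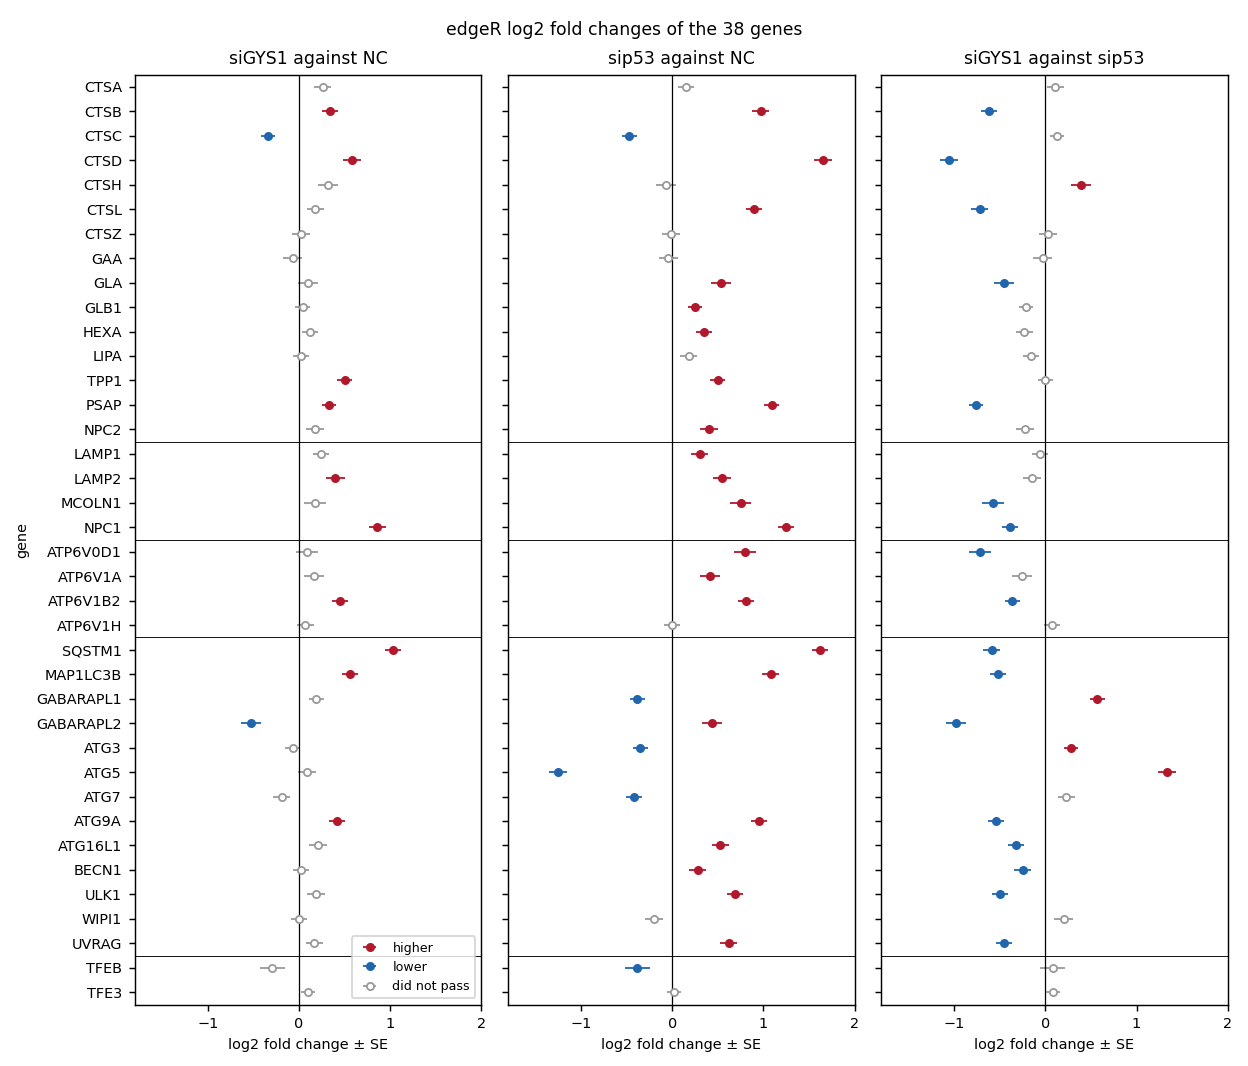
edgeR log2 fold changes with SE of the 38 genes in 3 comparisons; filled red points were higher and filled blue points lower at an adjusted p below 0.05, and open points did not pass. The horizontal lines part the role groups. In the comparison of sip53 with NC the points run from -1.25 (ATG5) to 1.65 (CTSD).

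The 13 autophagy genes held the widest spread: with sip53, 8 rose and 4 fell, and with siGYS1, 3 rose and 1 fell. With sip53, 61.5% rose, against 23.4% of all tested genes, and 30.8% fell, near the 26.5% of all. For siGYS1 the shares were 23.1% and 7.69%, against 10.4% and 9.24%. SQSTM1 (chr5:179806398-179838078, plus strand), also called p62, encodes the receptor that carries ubiquitin-tagged cargo into autophagosomes and is itself degraded there. SQSTM1 was the most abundant of the 13. It had 391 and 438 FPKM in the siGYS1 libraries, 631 and 569 FPKM in the sip53 libraries, and 217 and 218 FPKM in the NC libraries. No 2 groups overlap, and the NC libraries differ from each other far less than from the rest. SQSTM1 rose 2.04-fold with siGYS1 (log2 1.03, SE 0.09, adjusted p = 0.000117) and 3.08-fold with sip53 (log2 1.62, SE 0.09, adjusted p = 1.17e-06). It was lower with siGYS1 than with sip53 (-0.59, SE 0.09, adjusted p = 0.00049). Levels of the transcript say nothing of how much p62 protein was turned over.

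The ATG8 family, whose proteins coat the autophagosome, has 3 of its genes among the 38, and each followed a pattern of its own. MAP1LC3B, which encodes the LC3B protein (chr16:87383995-87404779, plus strand), had 81.9 and 84.9 FPKM in the siGYS1 libraries, 123 and 110 FPKM in the sip53 libraries, and 59.7 and 59.0 FPKM in the NC libraries. The groups are apart, with a rise of 0.56 (SE 0.09, adjusted p = 0.00294) with siGYS1 and 1.08 (SE 0.09, adjusted p = 1.23e-05) with sip53. MAP1LC3B2, a near-identical copy whose reads the counting could share, lay between 1.23 and 2.66 FPKM.

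GABARAPL2 (chr16:75566351-75577881, plus strand) had 52.2 and 59.1 FPKM in the siGYS1 libraries, 106 and 107 FPKM in the sip53 libraries, and 78.1 and 91.3 FPKM in the NC libraries. The siGYS1 libraries lie below NC and the sip53 libraries above it. GABARAPL2 fell by 0.53 (SE 0.11, adjusted p = 0.00986) with siGYS1 and rose by 0.44 (SE 0.11, adjusted p = 0.00726) with sip53, and the direct comparison gave -0.98 (SE 0.11, adjusted p = 0.000104). GABARAPL1 had 106 and 105 FPKM in the siGYS1 libraries, 70.3 and 69.2 FPKM in the sip53 libraries, and 97.8 and 97.5 FPKM in the NC libraries. Here the sip53 libraries are the low ones. GABARAPL1 fell by 0.38 (SE 0.08, adjusted p = 0.00376) with sip53, was at 0.19 (adjusted p = 0.131) with siGYS1, and was higher with siGYS1 than with sip53 (0.57, SE 0.08, adjusted p = 0.000442). The fall of GABARAPL2 with siGYS1 did not pass without NC replicate 2 (-0.42, adjusted p = 0.0962). Its rise with sip53 did not without sip53 replicate 2 or NC replicate 1 (0.33 to 0.43), and the fall of GABARAPL1 did not without sip53 replicate 2 (-0.36, adjusted p = 0.0528).

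**Figure D4:**
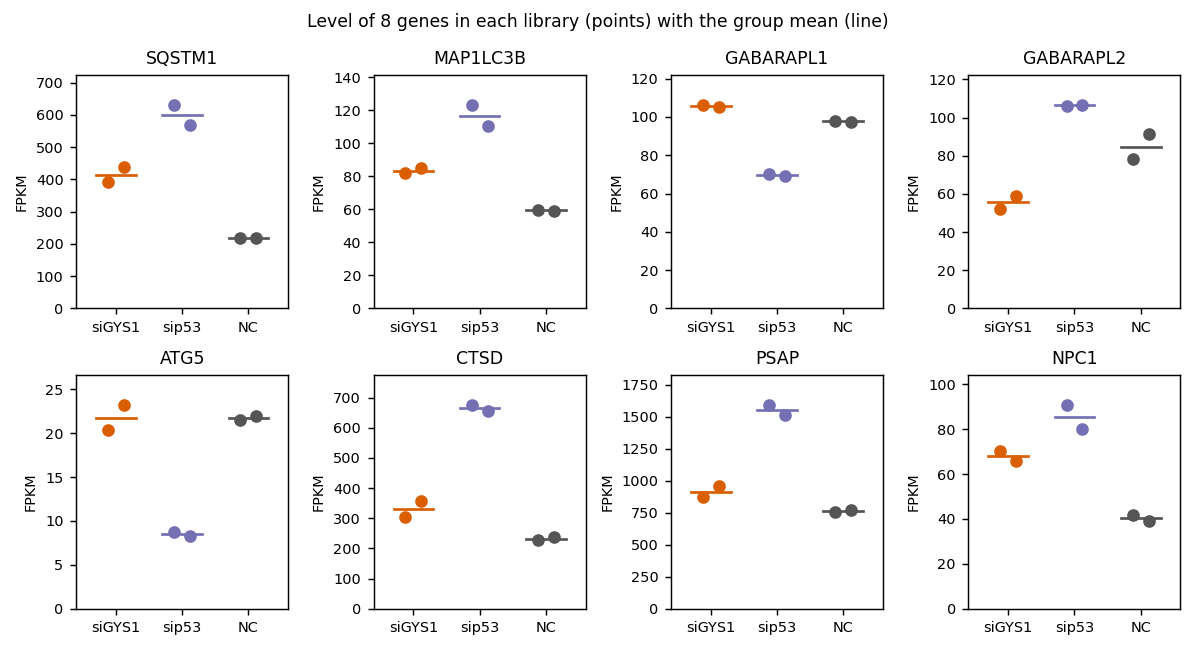
FPKM of 8 genes in each library (points) with the mean of the 2 libraries of a group (line); each panel has its own axis from 0, and groups run siGYS1, sip53, NC. ATG5 is low in the sip53 libraries alone (8.75 and 8.32 FPKM), and GABARAPL2 lies below NC with siGYS1 and above it with sip53.

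Of the genes that attach ATG8 proteins to lipid, ATG5, ATG7 and ATG3 fell with sip53 and ATG16L1 rose. ATG5, which with ATG12 and ATG16L1 forms the complex for the last step (chr6:106045423-106325791, minus strand), had 20.4 and 23.2 FPKM in the siGYS1 libraries, 8.75 and 8.32 FPKM in the sip53 libraries, and 21.5 and 21.9 FPKM in the NC libraries. The sip53 libraries stand far below the rest, and the siGYS1 libraries lie on both sides of NC. ATG5 fell to 42.1% of NC with sip53 by the fit (log2 -1.25, SE 0.10, adjusted p = 1.15e-05), the largest fall of the 38, and was higher with siGYS1 than with sip53 (1.33, SE 0.10, adjusted p = 1e-05). ATG7, the E1-like enzyme, had 36.5 and 32.1 FPKM in the siGYS1 libraries, 29.2 and 26.9 FPKM in the sip53 libraries, and 34.6 and 34.4 FPKM in the NC libraries. ATG3, the E2-like enzyme, had 43.7 and 44.9 FPKM in the siGYS1 libraries, 37.0 and 36.3 FPKM in the sip53 libraries, and 48.6 and 49.8 FPKM in the NC libraries. Both are lowest with sip53, where ATG7 fell by 0.42 (SE 0.09, adjusted p = 0.00414) and ATG3 by 0.35 (SE 0.08, adjusted p = 0.00733). ATG16L1, the scaffold of that complex, had 14.2 and 12.4 FPKM in the siGYS1 libraries, 15.3 and 16.1 FPKM in the sip53 libraries, and 12.2 and 10.8 FPKM in the NC libraries. It rose by 0.53 (SE 0.09, adjusted p = 0.00129) with sip53.

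The 3′ untranslated region (UTR) of ATG5 holds 7-base words of a kind, AGAGAAA or AAGAGAA, that an earlier analysis of these libraries linked with falls under sip53. Over all tested genes with a 3′ UTR in GENCODE 29, 31.1% of the 4649 with such a word fell with sip53, against 24.1% of the 8347 without. The median UTR length was 2715 bases with a word and 845 bases without. ATG5 holds 2 such words in a 3′ UTR of 2246 bases, and the first is printed with its surroundings, the word in capitals.
ATG5, word at position 597 of the 3′ UTR, chromosome 6: gtttaattttcAAGAGAAttaagaaagta
Of the 6 of the 38 genes that fell with sip53, ATG5, ATG7 and CTSC hold such a word, and so do 4 of the 24 that rose, MAP1LC3B, SQSTM1, HEXA and ATP6V1A. For siGYS1 the word of that kind is GTCCTCT, which CTSC holds and GABARAPL2 does not. Of the 26 genes that did not pass with siGYS1, ULK1 and CTSA hold it, and of the 10 that rose, 0 do. Over all tested genes 18.5% of the 1630 with that word fell with siGYS1, against 8.02% of the 11366 without, at median UTR lengths of 2855 and 1173 bases. The words came from an earlier analysis of these same libraries, so the shares describe them again and are no independent support. The part of these words in the falls was not tested.

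Of the 5 genes that act in starting and expanding the autophagic membrane, ATG9A, ULK1, UVRAG and BECN1 rose with sip53 and WIPI1 did not pass. ATG9A, a lipid scramblase that seeds the membrane, had 37.0 and 33.8 FPKM in the siGYS1 libraries, 46.8 and 47.0 FPKM in the sip53 libraries, and 27.3 and 25.5 FPKM in the NC libraries. The groups form 3 separate steps, at 0.42 (SE 0.09, adjusted p = 0.0109) with siGYS1 and 0.95 (SE 0.09, adjusted p = 2.47e-05) with sip53. ULK1, the kinase that starts autophagy, had 7.01 and 6.93 FPKM in the siGYS1 libraries, 9.50 and 9.70 FPKM in the sip53 libraries, and 6.79 and 5.96 FPKM in the NC libraries. It rose by 0.69 (SE 0.09, adjusted p = 0.000264) with sip53 and was at 0.19 (adjusted p = 0.195) with siGYS1. UVRAG, a partner of Beclin 1, had 8.43 and 6.18 FPKM in the siGYS1 libraries, 9.80 and 11.0 FPKM in the sip53 libraries, and 7.64 and 7.89 FPKM in the NC libraries. The siGYS1 libraries lie on both sides of NC, and UVRAG rose with sip53 by 0.62 (SE 0.09, adjusted p = 0.000469). On log2(FPKM + 1), limma gave 0.38 and an adjusted p of 0.0694 for that rise. BECN1, Beclin 1 of the lipid kinase complex, had 40.4 and 38.5 FPKM in the siGYS1 libraries, 44.9 and 45.8 FPKM in the sip53 libraries, and 40.1 and 44.9 FPKM in the NC libraries. Its call with sip53 is small (0.28, SE 0.09, adjusted p = 0.0254) and its highest NC library nearly reaches the sip53 ones. WIPI1, which binds the lipid that this complex makes, was at -0.20 (SE 0.10, adjusted p = 0.111) with sip53 and within 0.1 of 0 with siGYS1.

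Among the autophagy genes the following calls were lost with 1 library left out, in fits with fewer residual degrees of freedom. With siGYS1, ATG9A did not pass without NC replicate 2 (0.39, adjusted p = 0.103), which leaves 2 of 13 rises and 0 falls. With sip53, ATG3 did not pass without either sip53 library (-0.35 and -0.34), and BECN1 did not without any 1 of the sip53 or NC libraries (0.23 to 0.32). Without sip53 replicate 2, 2 autophagy genes fell with sip53, and the rises numbered 6 to 8 over the libraries left out in turn. In siGYS1 against sip53, 22.5% of all tested genes were higher and 20.9% lower. Among the 13 autophagy genes, 3 were higher (23.1%, near that share) and 8 lower (61.5%). Of these, ATG3 (0.28, SE 0.08, adjusted p = 0.0248) did not pass without either sip53 library (0.27 and 0.29), and ATG16L1 (-0.32, SE 0.09, adjusted p = 0.0206) did not without siGYS1 replicate 2 or either sip53 library (-0.33 to -0.25). BECN1 (-0.25, SE 0.09, adjusted p = 0.0405) did not pass there in 5 of the 6 runs that left out 1 library (-0.27 to -0.22).

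In siGYS1 against sip53 the other lower genes lay well below 0. PSAP was at -0.76, CTSL at -0.72, ATP6V0D1 at -0.72 and CTSB at -0.62. ATG9A was at -0.54, MAP1LC3B at -0.52, ULK1 at -0.50 and UVRAG at -0.45. Their SE was 0.08 to 0.12, and each was lower with siGYS1 by edgeR at an adjusted p between 7.57e-05 and 0.00346.

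The transcripts of the MiT/TFE factors did not rise in either knockdown. TFEB had 5.43 and 6.47 FPKM in the siGYS1 libraries, 4.91 and 5.97 FPKM in the sip53 libraries, and 7.56 and 7.38 FPKM in the NC libraries. Both knockdowns lie below NC and overlap each other, and TFEB fell with sip53 (-0.38, SE 0.14, adjusted p = 0.044) and was at -0.29 (SE 0.14, adjusted p = 0.16) with siGYS1. That fall did not pass without sip53 replicate 1 or either NC library (-0.38 to -0.24), nor by the DESeq2 Wald test (-0.35, adjusted p = 0.164). TFE3 lay between 42.0 and 47.3 FPKM in all libraries and passed in no comparison. MITF, a further member of the family, lay between 22.4 and 32.8 FPKM and passed in none either.

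Added up, the 15 hydrolases had 2527 and 2803 FPKM in the siGYS1 libraries, 3903 and 3760 FPKM in the sip53 libraries, and 2346 and 2409 FPKM in the NC libraries. The 13 autophagy genes summed to 861 and 908 FPKM in the siGYS1 libraries, 1152 and 1074 FPKM in the sip53 libraries, and 675 and 689 FPKM in the NC libraries. Neither sum overlaps between groups, and PSAP, CTSD and SQSTM1 carry much of them.

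Other genes of the same compartments were taken from lists of known members. Of 35 other lysosomal hydrolases and cofactors tested, 5 rose and 1 fell with siGYS1 and 12 rose and 4 fell with sip53, with medians of -0.05 and 0.16. That is 17.1% and 45.7% called, no more than the 19.7% and 49.9% of all tested genes. By direction, 14.3% rose and 2.86% fell with siGYS1, against 10.4% and 9.24% of all tested genes. With sip53, 34.3% rose and 11.4% fell, against 23.4% and 26.5%. ACP5, the tartrate-resistant acid phosphatase, had 65.1 and 64.4 FPKM in the siGYS1 libraries, 240 and 248 FPKM in the sip53 libraries, and 18.0 and 16.6 FPKM in the NC libraries. Its groups are widely separated: it rose 2.82-fold with siGYS1 (log2 1.49, SE 0.11, adjusted p = 5.72e-05) and 10.8-fold with sip53 (log2 3.43, SE 0.11, adjusted p = 8.61e-08), more than any of the 38 genes. SGSH, the heparan sulfamidase, had 6.15 and 7.19 FPKM in the siGYS1 libraries, 16.7 and 17.5 FPKM in the sip53 libraries, and 12.9 and 12.4 FPKM in the NC libraries. It fell by 0.87 (SE 0.11, adjusted p = 0.00108) with siGYS1 and rose by 0.51 (SE 0.10, adjusted p = 0.003) with sip53, and the direct comparison gave -1.38 (SE 0.11, adjusted p = 1.39e-05). PLA2G15, the lysosomal phospholipase A2, rose with siGYS1 (0.51, SE 0.10, adjusted p = 0.0072 by edgeR), though not by limma on log2(FPKM + 1) (adjusted p = 0.0544). CTSS, cathepsin S (0.96, SE 0.10, adjusted p = 4.84e-05), and ASAH1, the acid ceramidase (0.83, SE 0.09, adjusted p = 5.37e-05), rose with sip53 by edgeR. PLA2G15 also rose with sip53 (0.71, SE 0.10). CTSS also rose with siGYS1 (0.45, SE 0.10), which did not pass without NC replicate 2, while ASAH1 did not pass with siGYS1 (0.19, SE 0.09).

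Of 24 other lysosomal membrane proteins tested, 8 rose and 0 fell with siGYS1 and 15 rose and 1 fell with sip53, or 33.3% and 66.7% called, against 19.7% and 49.9% of all tested genes. The most changed in each comparison were MFSD12, which imports cysteine, OSTM1, the partner of the chloride transporter CLC-7, and SLC36A1, an amino acid exporter. MFSD12 had 135 and 159 FPKM in the siGYS1 libraries, 226 and 249 FPKM in the sip53 libraries, and 84.5 and 95.4 FPKM in the NC libraries. Its log2 fold change was 0.65 (SE 0.11) with siGYS1 and 1.46 (SE 0.11) with sip53, that of OSTM1 0.82 (SE 0.09) and 1.34 (SE 0.09), and that of SLC36A1 0.61 (SE 0.11) and 1.02 (SE 0.11). SLC36A1 did not pass with siGYS1 without NC replicate 2 (0.51). Of 17 other pump subunits tested, 1 rose and 1 fell with siGYS1 and 10 rose and 1 fell with sip53. The share called was 11.8% with siGYS1, below the 19.7% of all tested genes, and 64.7% with sip53, against 49.9%. ATP6V1G1 (0.79, SE 0.09), ATP6V0B (0.70, SE 0.10) and ATP6V1F (0.68, SE 0.10) led the rises with sip53. ATP6V1C1 rose with siGYS1 (0.68, SE 0.09) and also with sip53 (0.37, SE 0.09). Its rise with sip53 did not pass without sip53 replicate 1 or NC replicate 2. ATP6V0E2 fell with siGYS1 (-0.36, SE 0.10). That fall did not pass in 5 of the 6 runs that left out 1 library (-0.40 to -0.27). The subunit that fell with sip53 is ATP6V1B1, named after its values were seen. It had 1.07 and 0.68 FPKM in the siGYS1 libraries, 0.28 and 0.14 FPKM in the sip53 libraries, and 1.33 and 1.1 FPKM in the NC libraries. Its log2 fold change with sip53 was -2.43 (SE 0.42, adjusted p = 0.00107), larger in size than any of the rises, at a level far below that of the named subunits.

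Of 34 other genes of the autophagy machinery tested, 8 rose and 1 fell with siGYS1 and 13 rose and 3 fell with sip53. These are 26.5% and 47.1% called, against 19.7% and 49.9% of all tested genes. By direction, 23.5% rose and 2.94% fell with siGYS1, against 10.4% and 9.24% of all tested genes. With sip53, 38.2% rose and 8.82% fell, against 23.4% and 26.5%. ATG4C, a protease that trims ATG8 proteins, had 7.36 and 8.61 FPKM in the siGYS1 libraries, 2.80 and 1.63 FPKM in the sip53 libraries, and 9.4 and 10.1 FPKM in the NC libraries. It fell by 1.90 (SE 0.14, adjusted p = 6.35e-06) with sip53, the largest change among the named machinery genes. PLEKHM1, an adaptor for fusion with the lysosome, rose by 1.57 (SE 0.10) and ATG12 by 0.73 (SE 0.09) with sip53. Both also rose with siGYS1, PLEKHM1 by 0.47 (SE 0.10) and ATG12 by 0.58 (SE 0.09), PLEKHM1 not without NC replicate 2. With siGYS1, EPG5, a tether for fusion with the lysosome, rose by 0.84 (SE 0.14), and RUBCN, an inhibitor of autophagosome maturation, fell by 0.64 (SE 0.09). RB1CC1, of the ULK1 complex, rose with siGYS1 by 0.58 (SE 0.14), which did not pass without NC replicate 2 (0.46). EPG5 (0.65, SE 0.14) and RB1CC1 (0.45, SE 0.14) also rose with sip53, RB1CC1 not without sip53 replicate 1 or NC replicate 2. RUBCN did not pass with sip53 (0.14, SE 0.09).

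Of 12 other autophagy receptors tested, 5 rose and 0 fell with siGYS1 and 7 rose and 2 fell with sip53, which is 41.7% and 75.0% called, against 19.7% and 49.9% of all tested genes. OPTN, optineurin, a receptor for ubiquitin-tagged mitochondria and bacteria, had 97.6 and 101 FPKM in the siGYS1 libraries, 34.1 and 28.9 FPKM in the sip53 libraries, and 73.3 and 78.8 FPKM in the NC libraries. It fell by 1.25 (SE 0.10, adjusted p = 1.03e-05) with sip53 and rose by 0.43 (SE 0.10, adjusted p = 0.0142) with siGYS1. The direct comparison gave 1.68 (SE 0.10, adjusted p = 2.61e-06), and the rise with siGYS1 did not pass without either NC library (0.39 and 0.48). The mitophagy receptor BNIP3 rose by 0.43 (SE 0.09) with siGYS1 and 1.12 (SE 0.09) with sip53. Its relative BNIP3L rose by 0.62 (SE 0.09) with siGYS1 and 0.99 (SE 0.09) with sip53. RETREG1, a receptor for the endoplasmic reticulum, rose by 0.61 (SE 0.13) with siGYS1 and 1.53 (SE 0.13) with sip53. TOLLIP rose by 0.48 (SE 0.12) with siGYS1 and 0.64 (SE 0.12) with sip53. With siGYS1, BNIP3 did not pass without NC replicate 1, and RETREG1 did not without NC replicate 2 (0.53). TOLLIP with siGYS1 did not pass without any 1 of the sip53 or NC libraries (0.45 to 0.50).

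Of 29 tested genes of nutrient sensing at the lysosome, where the kinase complex mTORC1 is switched on, 9 rose and 1 fell with siGYS1 and 9 rose and 3 fell with sip53. The share called was 34.5% with siGYS1, against 19.7% of all tested genes, and 41.4% with sip53, below the 49.9% of all. By direction, 31.0% rose and 3.45% fell with siGYS1, against 10.4% and 9.24% of all tested genes. With sip53, 31.0% rose and 10.3% fell, against 23.4% and 26.5%. FNIP2, a partner of folliculin, rose by 0.92 (SE 0.15, adjusted p = 0.0032) with siGYS1 and 1.66 (SE 0.15, adjusted p = 1.83e-05) with sip53. Folliculin itself, FLCN, rose by 1.12 (SE 0.10) with sip53. FLCN was also called higher with siGYS1 (0.33, SE 0.10), a call lost in 12 of 16 alternative settings. CASTOR1, an arginine sensor, had 20.9 and 22.7 FPKM in the siGYS1 libraries, 62.3 and 64.9 FPKM in the sip53 libraries, and 28.8 and 31.3 FPKM in the NC libraries. It fell by 0.43 (SE 0.10, adjusted p = 0.0143) with siGYS1 and rose by 1.17 (SE 0.09, adjusted p = 9.09e-06) with sip53, and the direct comparison gave -1.60 (SE 0.09, adjusted p = 2.37e-06). Its fall did not pass without NC replicate 2 (-0.39). SESN1, a leucine sensor and a known p53 target, had 17.0 and 17.6 FPKM in the siGYS1 libraries, 7.0 and 6.98 FPKM in the sip53 libraries, and 12.7 and 11.2 FPKM in the NC libraries. SESN1 rose by 0.60 (SE 0.10, adjusted p = 0.00297) with siGYS1 and fell by 0.60 (SE 0.10, adjusted p = 0.000899) with sip53. FNIP1 rose with siGYS1 (0.67, SE 0.13), which did not pass without NC replicate 2 (0.52), and it also rose with sip53 (0.69, SE 0.13). RRAGD, a Rag GTPase named after its values were seen, was near absent from NC: it had 18 and 9 counts in the siGYS1 libraries, 122 and 109 counts in the sip53 libraries, and 2 and 5 counts in the NC libraries. It was called higher with sip53 (adjusted p = 7.74e-06), the gene of this list furthest from 0, and its call with siGYS1 (adjusted p = 0.0376) failed in 5 of the 6 runs that left out 1 library.

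Macrophages are rich in lysosomes, and their markers were low. Of 8 markers 6 are in the table, and they summed to 5.93 to 6.09 FPKM in the siGYS1 libraries, 7.10 to 8.23 FPKM in the sip53 libraries and 5.11 to 5.47 FPKM in the NC libraries. CD163, CSF1R and TYROBP stood at no more than 0.19 FPKM in any library. The 2 markers tested, CD68, itself a lysosomal membrane protein (0.81, SE 0.15), and ITGAM (0.71, SE 0.18), rose with sip53, ITGAM not without sip53 replicate 1 (0.61) or NC replicate 2 (0.57). The part of such cells in the results was not tested. Of 7 tested markers of epithelium and clear cell carcinoma, 0 rose and 2 fell with siGYS1 and 0 rose and 4 fell with sip53. That is 28.6% and 57.1% called, against 19.7% and 49.9% of all tested genes. Falls alone were 9.24% of all tested genes with siGYS1 and 26.5% with sip53. In bulk RNA, fewer cells of a type and less RNA per cell cannot be told apart.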

How the data were processed

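The deposited table gives 4 values per library for 16910 human Ensembl gene rows. Its columns are named, per the file headers, as read count, normalized read count, TPM and FPKM. The authors' read counts are expected counts: in each library 16.8% to 18.1% of them are not whole (tolerance 1e-09). The authors' TPM and their normalized signal (normalized read count) were read but not used for tests. The submitters' processing notes name several aligners (STAR, HISAT2, TopHat) and counters (featureCounts, HTSeq, Salmon) without roles, and the mouse build mm10. The identifiers are human, and 16830 of 16910 are in GENCODE 29. The sources used here do not say which tool made the counts or whether strand was used, and 13 of the 38 genes have counts that are not whole.

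Counts were rounded and fitted in edgeR 4.0.16 (R 4.3.3) with TMM factors, a filterByExpr minimum count of 10 and the quasi-likelihood functions glmQLFit and glmQLFTest. The model held all 6 libraries with a term for group and had 3 residual degrees of freedom. After filtering 13235 genes were left, and adjustment was Benjamini-Hochberg over all of them. SE is the absolute log2 fold change over the square root of F. DESeq2 1.42.0 and limma 3.58.1 gave alternatives. Genes, lists and motifs were chosen with earlier results of these data known, and no list was tested. Of the wider lists the named genes are up to 3 per comparison against NC with the largest absolute log2 fold change among those that passed, with a mean FPKM of at least 1 and no overlap between groups; MITF, MAP1LC3B2 and the markers are named beside them, and ATP6V1B1 and RRAGD were added after their values were seen. The level of the transcript targeted by sip53 is not reported here.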

Additional observations from a re-analysis of the deposited data

How the results depend on the processing

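Normalization (DESeq2 size factors, upper quartile), the filter (none, or a minimum count of 50), the test (DESeq2, or limma on log2(FPKM + 1) and log2(FPKM + 0.1)), the groups in the fit, a replicate block and a correction for exon length were varied 1 at a time. The counts of the 38 genes called up or down stayed within 1.5 times in all of these settings, which keep every library of the groups compared, except the fall count for siGYS1 with only the 2 groups compared, which was 1. With only those groups 1577 of all genes changed with siGYS1, against 2602 in the full fit. The labels state no batch behind the replicate numbers, and deviations of same-numbered libraries correlated at 0.13 (siGYS1 and sip53), 0.28 (siGYS1 and NC) and -0.02 (sip53 and NC). With the replicate block 4662 of all genes changed with siGYS1, 7890 with sip53 and 7202 in siGYS1 against sip53. Of the 38, 13 rose and 2 fell with siGYS1, and 25 rose and 6 fell with sip53. In siGYS1 against sip53, 5 of them were higher and 21 lower. With 1 library left out, changed genes ran from 926 to 4260 for siGYS1, 4271 to 7621 for sip53 and 3416 to 6337 for siGYS1 against sip53. Of the 38, 6 to 12 then rose and 0 to 2 fell with siGYS1, 17 to 25 rose and 4 to 6 fell with sip53, and 2 to 4 were higher and 12 to 18 lower in the direct comparison. Fewer samples leave fewer residual degrees of freedom in those fits. Of 2000 pairs of a gene value and a setting, which leave out 24 member values that did not pass and lie within 0.1 of 0, 1848 kept their direction and side of the threshold, 120 no longer passed, 27 came to pass and 5 changed sign, none of them a called value. Those 24 values changed sign 64 times, in 13 genes. The 5 sign changes were HEXA (-0.03) with siGYS1 and CTSC (-0.002) in siGYS1 against sip53 with the length correction, ATP6V1A with siGYS1 without siGYS1 replicate 1 (-0.00025, against 0.31 without replicate 2), and UVRAG with siGYS1 in limma on log2(FPKM + 1) (-0.09) and log2(FPKM + 0.1) (-0.1). The cause was not tested. No setting shifted the median of all genes by more than 0.09.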
